A study of Mus musculus with 7 samples.

Results

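Fatty acid elongases and desaturases were examined in livers of mice that lacked HDAC3 and of mice in which it had been put back. The family was taken as 10 named genes, the elongase genes Elovl1, Elovl2, Elovl3, Elovl5 and Elovl6 and the desaturase genes Scd1, Scd2, Fads1, Fads2 and Fads3. A member was read from the rows of the deposited table that carry its symbol and no other. Each of the 10 genes had 1 such probe set, out of 27541 probe sets and 19933 genes in all. The samples were 7 livers of male C57BL/6 mice aged 4 months, each hybridised to its own Affymetrix Mouse Gene 1.0ST array. In the knockout group of 3 mice, which the labels call HDAC3 knockout, an adeno-associated virus (AAV) delivered Cre recombinase. The rescued group of 4 mice, whose genotype is given as HDAC3 rescued wild-type, received the same AAV-Cre and a further AAV that encodes Flag-tagged wild-type HDAC3. All mice had free access to chow and were killed 2 weeks after injection at 5 pm, which is zeitgeber time 10. The groups therefore differ by a vector as well as by HDAC3, both carry Cre virus, and no uninjected liver was analysed here. The deleted allele and the promoters of the vectors are not given in the sources used here. HDAC3 is a histone deacetylase that acts with the NCoR and SMRT corepressors, and the comparison asks which transcripts differ in its absence.

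Elongases and desaturases sit in the endoplasmic reticulum and remodel fatty acids after the cytosolic synthase has made palmitate or after food has supplied essential fatty acids. An elongase carries out the condensing step that adds carbon units to an acyl-CoA, and 3 further enzymes complete the cycle. A desaturase puts in a double bond with electrons from cytochrome b5. In liver, Elovl6 and Scd1 belong to the lipogenic programme that turns palmitate into stearate and oleate, while Fads1, Fads2, Elovl2 and Elovl5 make arachidonic and docosahexaenoic acid from plant fatty acids. The transcription factor SREBP-1c and the nuclear receptors LXR and PPAR alpha are known regulators of several of these genes.

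Values are log2 intensities per array, and a difference is knockout minus rescued with its standard error (SE). Probe sets differ in brightness, so levels of different members were not compared with each other. Percentiles of level among all genes or receptor genes, and summed marker intensities, do set probe sets side by side and are rough for that reason. A gene was called when the adjusted p in limma's moderated test, corrected over all 19933 genes, was under 0.05. The replicates are separate livers per the labels. In bulk liver, fewer cells of a type and less RNA per cell cannot be told apart. Every knockout array had a higher median log2 intensity (6.71 to 6.79) than every rescued array (6.59 to 6.68), and the median difference over all genes was 0.09 as deposited and -0.03 after median centring. The share of higher among called genes moved with this offset. It was 66.3% as deposited, 42.3% with quantile-normalized arrays, 19.3% with medians centred and 41.6% with cyclic loess. The targeted gene Hdac3 was 1.40-fold lower in the knockout livers, at 8.93, 8.75 and 9.07 against 9.23, 9.45, 9.55 and 9.38. Its adjusted p in limma's test was 0.0124, and 0.05001 without knockout replicate 1. Its probe set can read the vector transcript too, so this checks the labels only in part. Of 7 measured hepatocyte markers none was called, and their summed intensity spanned 68741 to 71175 in rescued and 69331 to 70693 in knockout livers. This sum is weighted to the brightest markers. Hnf4a had the largest difference of the 7, at -0.29 (95% interval -0.55 to -0.02, adjusted p = 0.116 in limma's test), with knockout replicate 1 lowest at 11.56. Of 5 measured markers of white and brown fat, where several elongases are also abundant, none was called, and Adipoq, Lep, Ucp1 and Cidea lay below the 95th percentile of 1190 olfactory and vomeronasal receptor genes. The summed intensity of the fat markers spanned 201 to 234 in rescued and 225 to 246 in knockout livers. None of 6 Kupffer cell, 5 leukocyte or 5 cholangiocyte markers was called. Of 2 erythroid markers Alas2 was called lower (-1.15 on the log2 scale), while Slc4a1 differed by 0.37 in the other direction and was not called (adjusted p = 0.0535). Their summed intensity, most of it from Alas2, was 832 to 983 in rescued and 414 to 556 in knockout livers. Of 7 stellate cell markers 1 was called higher (Lrat, adjusted p = 0.0398), and of 6 endothelial markers 1 was called lower (Clec4g, adjusted p = 0.0477). Their part in the results below was not tested.

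Of the 10 members, 4 were called higher in the knockout livers, against 9.54% of all genes, and none was called lower, against 4.85% of all genes. The genes called were Elovl3, Elovl5, Elovl6 and Scd1. At an unadjusted p under 0.05 there were 5 members, these 4 and Elovl2. In each of 3 rescaled versions only Elovl3 and Elovl5 were called higher, where 4.22% of all genes were so with quantile normalization, 2.59% with median centring and 4.09% with cyclic loess. Elovl2 was then called lower, where 5.76%, 10.9% and 5.75% of all genes were. The calls of Elovl3 and Elovl5 thus held in all 4 versions of the values, and those of Elovl2, Elovl6 and Scd1 did not. All 3 knockout arrays lay above all 4 rescued arrays for the 4 genes called, as for 21.0% of all genes, and below them for Elovl2, as for 8.56% of all genes. The median difference of the 10 members was 0.10, beside 0.09 for all genes, over members whose differences had both signs. Relative to the median gene, the differences were 0.92 for Elovl3, 0.60 for Elovl5, 0.27 for Elovl6, 0.14 for Scd1, -0.22 for Fads1 and -0.50 for Elovl2.

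**Figure D1:**
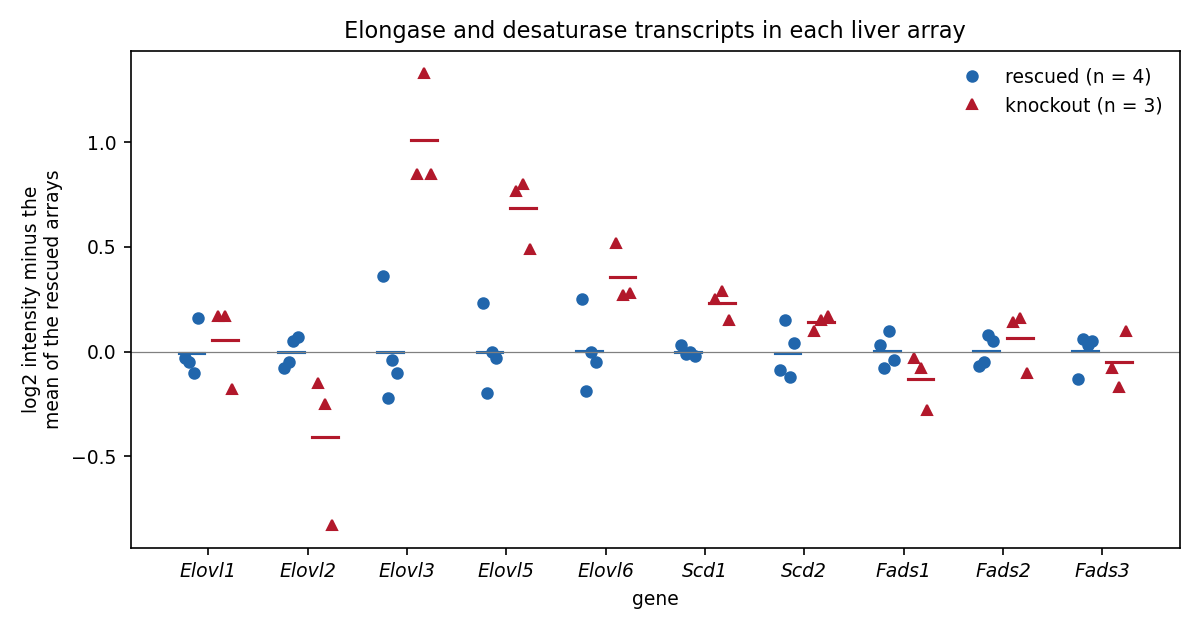
Log2 intensity of the 10 genes in each array, after subtracting the mean of the 4 rescued arrays (circles, rescued; triangles, knockout; bars, group means). All knockout arrays lie above all rescued arrays for Elovl3, Elovl5, Elovl6 and Scd1 and below them for Elovl2, and the groups overlap for the other 5 genes.

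Elovl3 showed the largest difference of the 10 genes. It encodes an elongase of saturated and monounsaturated very long chain fatty acids, and its liver transcript is known to be higher in males and to vary with the time of day. The 3 knockout livers were at 10.66, 11.14 and 10.66, and the 4 rescued livers at 10.17, 9.59, 9.77 and 9.71. Rescued replicate 1 was the highest of its group but still below each knockout liver. The difference was 1.01 (SE 0.15), a 2.01-fold higher level, with a 95% interval of 0.68 to 1.33 and adjusted p = 0.00299 in limma's test. It ranked at percentile 99.8 among the differences of all genes and was called with each of the 7 arrays left out in turn, with values from 0.85 to 1.13. Elovl1, an elongase that also acts on saturated and monounsaturated very long chains, was at 10.81, 10.81 and 10.46 in the knockout and 10.61, 10.59, 10.54 and 10.80 in the rescued livers. Its groups overlapped, and the interval of the difference was -0.16 to 0.28. A scaling factor common to all genes of an array cancels in the ratio of Elovl3 to Elovl1 within that array. This ratio was 0.95 higher on the log2 scale in the knockout livers, and no knockout array overlapped a rescued one. Ratios were not computed after quantile normalization or cyclic loess, which can shift genes unequally.

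Elovl5 and Elovl2, the elongases of polyunsaturated fatty acids, had differences of opposite sign. Elovl5 elongates the first products of the desaturases, and Elovl2 the longer ones on the way to docosahexaenoic acid. Elovl5 was at 12.62, 12.65 and 12.34 in the knockout and 12.08, 11.65, 11.85 and 11.82 in the rescued livers. The difference of 0.69 (SE 0.11) was a 1.61-fold higher level, with an interval of 0.45 to 0.93 and adjusted p = 0.00442 in limma's test, and it was called with each array left out. Elovl2 was at 11.50, 11.40 and 10.82 in the knockout and 11.57, 11.60, 11.70 and 11.72 in the rescued livers. The knockout arrays were all below the rescued ones, with knockout replicate 3 far lower than the others. The difference of -0.41 (SE 0.14) did not pass as deposited (adjusted p = 0.0633) but passed once the arrays were quantile-normalized (0.0462), median-centred (0.0230) or fitted by cyclic loess (0.0456). Without knockout replicate 3 it was -0.20. Across the 7 arrays left out in turn the adjusted p of Elovl2 on the values as deposited ranged from 0.0640 to 0.142. Within arrays, the log2 ratio of Elovl5 to Elovl2 differed by 1.1, the widest gap of the 7 pairs compared. Set to the rescued mean, it was 0.92, 1.05 and 1.33 in the knockout and 0.31, -0.16, -0.05 and -0.10 in the rescued livers. Neither gene's groups overlapped and their differences had opposite signs, so the ratio could not overlap either. Its separation restates the single-gene differences and adds no further evidence.

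The start regions of 6 members were found in the RefSeq promoter table of build GRCm38.p6, which gives 250 bases before to 50 after a start. Elovl3, Scd1, Scd2 and Fads1 had no entry. The windows of Elovl5 and Elovl6, which were called higher, and the first window of Elovl2, whose difference had the other sign, are printed here so that they can be read side by side. Capitals mark an E-box (CACGTG) or a CCAAT box (CCAAT or, on the other strand, ATTGG), the latter being the site of NF-Y, a factor known to work beside SREBP. The Elovl5 window is chr9:77917115-77917414 on the plus strand, the Elovl6 window chr3:129532136-129532435 on the plus strand and the Elovl2 window chr13:41220354-41220653 on the minus strand.
Elovl5: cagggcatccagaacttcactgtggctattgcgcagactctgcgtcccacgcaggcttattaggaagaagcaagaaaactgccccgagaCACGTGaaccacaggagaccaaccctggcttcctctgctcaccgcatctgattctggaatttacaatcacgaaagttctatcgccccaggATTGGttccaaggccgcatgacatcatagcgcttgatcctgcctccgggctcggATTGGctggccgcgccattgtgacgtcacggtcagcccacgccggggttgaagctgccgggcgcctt
Elovl6: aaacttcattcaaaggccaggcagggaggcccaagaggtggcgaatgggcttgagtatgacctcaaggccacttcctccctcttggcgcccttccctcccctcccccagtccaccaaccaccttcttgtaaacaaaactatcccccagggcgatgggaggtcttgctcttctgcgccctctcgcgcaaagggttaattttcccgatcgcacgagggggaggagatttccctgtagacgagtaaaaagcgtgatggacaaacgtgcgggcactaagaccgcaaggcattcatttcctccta
Elovl2: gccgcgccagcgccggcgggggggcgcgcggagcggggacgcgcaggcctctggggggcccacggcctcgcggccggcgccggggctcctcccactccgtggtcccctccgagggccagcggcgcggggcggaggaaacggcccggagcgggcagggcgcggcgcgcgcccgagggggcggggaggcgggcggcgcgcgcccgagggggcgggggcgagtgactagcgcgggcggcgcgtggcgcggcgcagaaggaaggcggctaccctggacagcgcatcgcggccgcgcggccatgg

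The Elovl5 window held 1 E-box, 161 bases before the start, and 2 CCAAT boxes, 71 and 17 bases before it. An E-box occurred in 7.15% and a CCAAT box in 37.4% of the 32851 windows of this length. Neither motif was in the Elovl6 or Elovl2 window. CCAAT boxes were also in the window of Fads3 and in the upstream window of Elovl1, neither of which was called. The printed Elovl2 window had 5 GC boxes (GGGCGG on either strand, in 35.7% of windows). Its GC content was 84.7%, against 57.7% for Elovl5, 55.7% for Elovl6 and a median of 52.7%. Members that were not called had GC boxes too. The upstream window of Elovl1 had 5 at 70.7% GC, and that of Fads3 had 2 at 73% GC. The second Elovl2 window had none. The core of the receptor element of ROR and REV-ERB (TAGGTCA, in 2.61% of windows) and that of the sterol regulatory element (TCACCCCA, in 1.56%) were in none of the windows of the 6 members. Both strands were searched for each motif, and neither a match nor its absence shows whether a factor binds.

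Elovl6 and Scd1, which act in turn on newly made palmitate, were higher by a small margin as deposited, and in no rescaled version were they called. Elovl6 turns palmitoyl-CoA into stearoyl-CoA, and Scd1, the main hepatic stearoyl-CoA desaturase, makes oleoyl-CoA from it. Elovl6 was at 12.09, 11.84 and 11.85 in the knockout and 11.82, 11.38, 11.57 and 11.52 in the rescued livers. The lowest knockout liver was only just above rescued replicate 1. The difference was 0.36 (SE 0.11, 1.28-fold) with adjusted p = 0.0462 in limma's test, and the call was kept only when rescued replicate 1 was left out, with values from 0.28 to 0.44. Scd1 was at 13.52, 13.56 and 13.42 against 13.30, 13.26, 13.27 and 13.25. The rescued livers lay close together, with an SD of 0.02 against 0.08 in the knockout group. Its difference of 0.23 (SE 0.07) was a 1.17-fold higher level with adjusted p = 0.0422. Leaving out knockout replicate 3 or rescued replicate 1 kept this call, and leaving out any of the other 5 arrays ended it, with values from 0.20 to 0.27. In the rescaled versions the adjusted p values were 0.0844 to 0.116 for Elovl6 and 0.156 to 0.262 for Scd1. The log2 ratio of Elovl6 to Scd1 differed by 0.13 between groups, with overlapping arrays. The log2 ratio of Elovl6 to Elovl5 was lower by more than the spread in the knockout livers, at -0.25, -0.53 and -0.21 from the rescued mean, while the rescued livers kept within -0.02 and 0.02 of it. This pair had an adjusted p of 0.0667 in the exact permutation test over the 7 pairs compared. That does not pass, but no pair could pass there on its own.

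Scd2, the stearoyl-CoA desaturase that is most abundant in brain, had a probe set at percentile 53.3 of all genes. Its level lay at percentile 98.9 of the receptor genes, which serve here as a measure of background. Scd2 was at 7.06, 7.11 and 7.13 in the knockout and 6.87, 7.11, 6.84 and 7.0 in the rescued livers. Rescued replicate 2 lay within the knockout range, and the difference of 0.14 (interval -0.03 to 0.31) had adjusted p = 0.204 in limma's test. The log2 ratio of Scd1 to Scd2 differed by 0.09 with overlapping arrays. In the RefSeq gene table Scd1, Scd2, Scd3 and Scd4 follow each other on 1 chromosome with no other coding gene between them, and such close relatives can share probe signal.

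The front-end desaturases were not called in either direction. Fads2 carries out the entry step of the polyunsaturated pathway, Fads1 a later step that yields arachidonic acid, and Fads3 is a relative known to act on sphingoid bases. Fads2 was at 12.81, 12.83 and 12.57 in the knockout and 12.60, 12.62, 12.75 and 12.72 in the rescued livers, so knockout replicate 3 was below every rescued liver and the other 2 above. Its difference of 0.07 (interval -0.11 to 0.25) turned below 0 in each rescaled version, to -0.02 by quantiles, -0.05 by medians and -0.0018 by cyclic loess. Fads1 was at 12.37, 12.32 and 12.12 in the knockout and 12.43, 12.32, 12.50 and 12.36 in the rescued livers, with overlapping groups. Its difference was -0.13 (interval -0.31 to 0.04) as deposited and -0.22, -0.25 and -0.19 after the rescalings, none of which passed (adjusted p = 0.0839, 0.0589 and 0.124). Fads3 had a probe set at percentile 53.9 of all genes and 99.0 of the receptor genes. It was at 6.98, 6.89 and 7.16 in the knockout and 6.93, 7.12, 7.09 and 7.11 in the rescued livers. The difference was -0.05 (interval -0.23 to 0.13). The 3 Fads genes are neighbours in the order Fads3, Fads2, Fads1, with no other coding gene between them. Despite this, the log2 ratio of Fads1 to Fads2 was lower in every knockout array, at -0.17, -0.24 and -0.18 from the rescued mean, than in any rescued array, at 0.10, -0.03, 0.03 and -0.10. The ratio of Fads2 to Fads3 overlapped between groups.

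**Figure D2:**
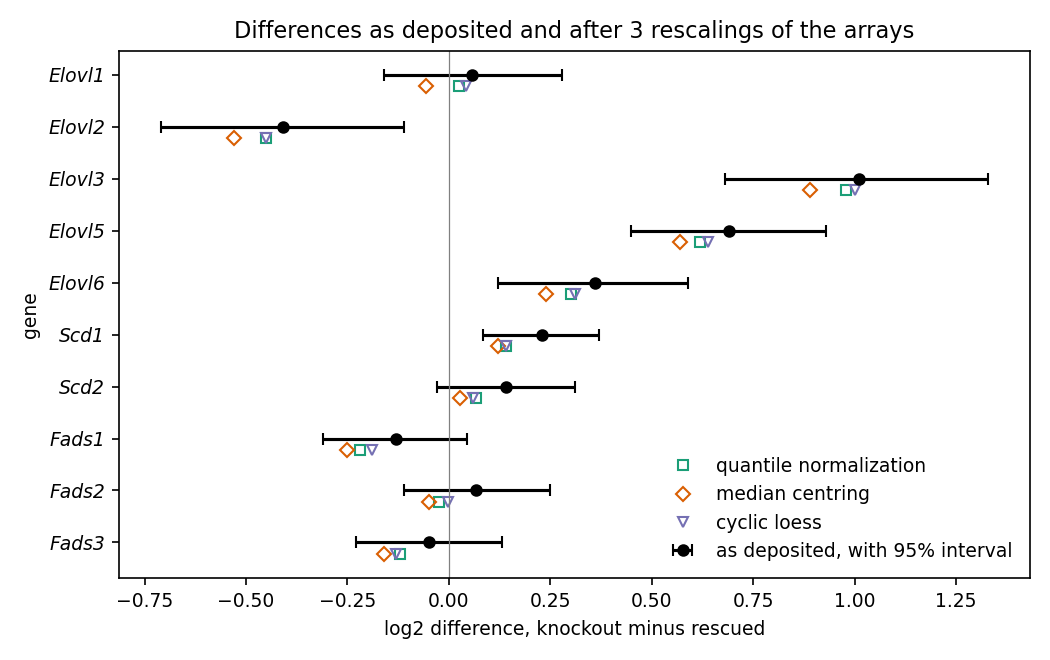
Log2 difference between knockout and rescued livers for each gene, as deposited (circles, with 95% intervals from limma) and after each of 3 rescalings (open symbols). Elovl3 and Elovl5 stay at 0.57 or above in all 4 versions, and Elovl1 and Fads2 change sign with the scaling.

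Pairs of members were compared by their within-array log2 ratio with an exact two-sided permutation test over the 35 assignments of the 7 arrays, adjusted over 7 pairs. The smallest p this design allows is 0.0286. Elovl5 to Elovl2, Elovl3 to Elovl1 and Elovl6 to Elovl5 reached it, with an adjusted p of 0.0667 each in the exact test. Fads1 to Fads2, with a difference of -0.20, had an exact p of 0.0571 and an adjusted p of 0.1. The other 3 pairs had exact p values from 0.343 to 0.457. No pair passed after adjustment. For 4 of 7 pairs every knockout array lay to the same side of every rescued array. How often ratios of other gene pairs do so was not computed, so this count has no background to be read against. Of single genes, 21.0% had all knockout arrays above and 8.56% all below the rescued arrays. For Elovl5 to Elovl2 the lack of overlap follows from that of the single genes.

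**Figure D3:**
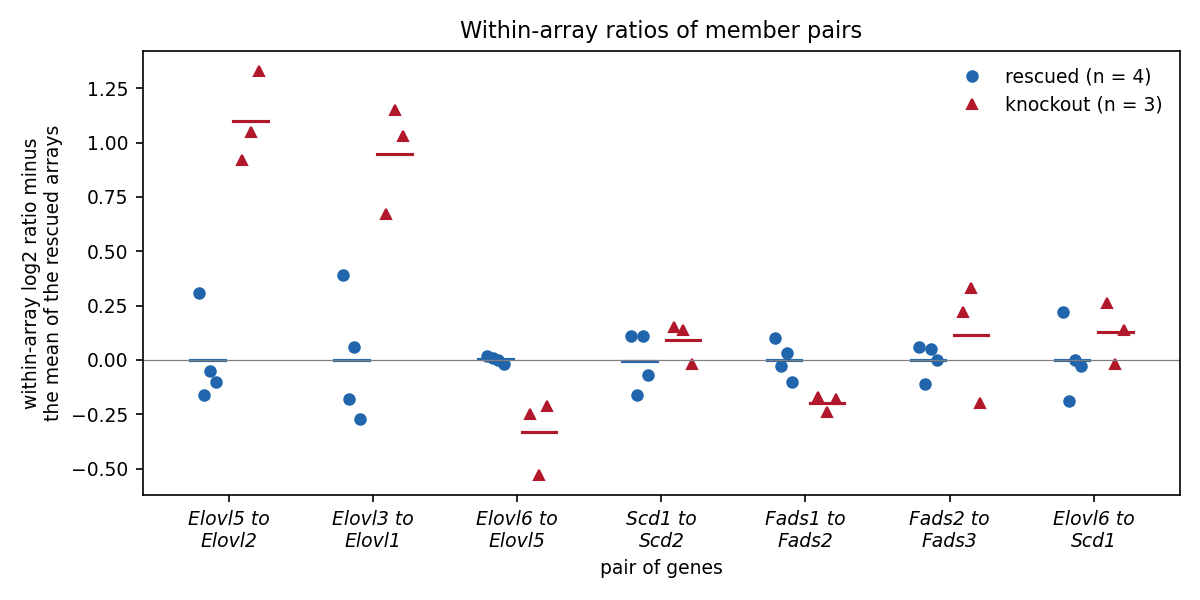
Within-array log2 ratio of 7 pairs of genes, after subtracting the mean of the rescued arrays (circles, rescued; triangles, knockout; bars, group means). The largest gap is 1.1 for Elovl5 to Elovl2. The groups do not overlap for the pairs Elovl5 to Elovl2, Elovl3 to Elovl1, Elovl6 to Elovl5 and Fads1 to Fads2. How often ratios of other gene pairs do not overlap was not computed.

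The members did not follow a common order of the livers. Knockout replicate 3 was the lowest knockout liver for 6 of the 10 genes, Elovl1, Elovl2, Elovl5, Scd1, Fads1 and Fads2, and the highest for Scd2 and Fads3. Rescued replicate 1 was the highest rescued liver for Elovl3, Elovl5, Elovl6 and Scd1, the same 4 genes that were called. These 4 therefore shared their highest rescued liver, but not their highest knockout liver, which was replicate 2 for Elovl3, Elovl5 and Scd1 and replicate 1 for Elovl6. Profiles over the 7 arrays were compared with 9625 genes above the median level, leaving out predicted, clone and mitochondrial (mt-) gene names. Among these, the profile of Elovl3 was most like those of Gpt2 (r = 0.991), Uqcrb (0.989) and Arc (0.989). The profile of Elovl5 was most like those of Nqo2 (0.992), Mrpl40 (0.988) and Gask1a (0.988). Elovl6 was closest to Odf3 (0.996), Tnfrsf13c (0.987) and Olfr401 (0.985), and Scd1 to Syne3 (0.997), Acaa1b (0.994) and Nfic (0.993). The 3 genes closest to Elovl6 were themselves not called (adjusted p = 0.0572 to 0.0644 in limma's test). Neither were Uqcrb (0.440), listed for Elovl3, and Mrpl40 (0.0716), listed for Elovl5. Olfr401 is one of the olfactory receptor genes used here as background. Acaa1b, a peroxisomal thiolase gene, was itself 2.17-fold higher in the knockout livers. These correlations are descriptions, and the same 7 arrays and their group difference enter each of them.

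The partners of the elongases and desaturases were read from 8 lists, whose counts stand against 9.54% of all genes called higher and 4.85% called lower as deposited and a median difference of 0.09. Of the 6 genes that complete the elongation cycle, 1 was called higher and none lower, with a median difference of 0.06. This was Hsd17b12, the ketoacyl-CoA reductase of the cycle, at 10.81, 10.83 and 10.56 in the knockout and 10.44, 10.34, 10.35 and 10.39 in the rescued livers (1.28-fold, adjusted p = 0.0199, but 0.0539 after median centring). It was no longer called when knockout replicate 1 or 2, or rescued replicate 2 or 3, was left out. The dehydratase genes Hacd1, Hacd2, Hacd3 and Hacd4 and the enoyl reductase gene Tecr differed by -0.08 to 0.16 and were not called. Of 6 genes for cytochrome b5 and its reductases 2 were called higher and none lower, Cyb5b (1.23-fold, adjusted p = 0.0405) and Cyb5r3 (1.22-fold, 0.0409). Neither passed after rescaling, and both passed only with knockout replicate 3 or rescued replicate 1 left out. The 7 other elongases and desaturases included 2 called higher and none lower. The dihydroceramide desaturase gene Degs1 was 1.37-fold higher (adjusted p = 0.0248, but 0.0532 after median centring) and was called with 3 of the 7 arrays left out, namely knockout replicate 3 and rescued replicates 1 and 2. Scd3 differed by 0.32 at a level that lay at percentile 88.9 of the receptor genes, so it was not shown to be above background, and no rescaled version called it.

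Upstream, 2 of 9 measured genes that supply palmitate and NADPH were called higher and none lower, with a median difference of 0.41 beside 0.09 for all genes. The count rested on single livers: it was 5 without rescued replicate 1, 2 without knockout replicate 3, and 1 with any of the other 5 arrays left out. It was also 1 in each rescaled version. Acacb, an acetyl-CoA carboxylase gene whose product makes malonyl-CoA, was at 10.38, 10.54 and 10.27 in the knockout livers. In the rescued livers it was at 9.69, 9.19, 9.18 and 9.29. This 2.08-fold rise had adjusted p = 0.000822 in limma's test and was called after every rescaling and with every array left out. Acaca, the other acetyl-CoA carboxylase gene, differed by 0.05 and was not called (adjusted p = 0.705). The acetyl-CoA synthetase gene Acss2 differed 1.59-fold (adjusted p = 0.0414), lost its call in each rescaled version, and kept its call only without rescued replicate 1. Fasn, the fatty acid synthase that makes palmitate, had a difference of 0.49 with adjusted p = 0.0576. Rescued replicate 1, at 11.96, stood above the other rescued livers at 11.22 to 11.41. Without it Fasn was called, with a difference of 0.64 and adjusted p = 0.0093 in limma's test. Fasn was not called with any other array left out, where its difference went down to 0.39. No rescaled version called it either (adjusted p = 0.1002 to 0.1105). Of 8 measured genes that activate fatty acids to acyl-CoA, 2 were called higher and 1 lower. Acsl4, an acyl-CoA synthetase that prefers arachidonic acid, was 1.76-fold lower, at 8.95, 9.02 and 9.04 against 9.75, 9.68, 9.93 and 9.93 (adjusted p = 0.000298). The transport protein and synthetase gene Slc27a1 rose 1.49-fold (adjusted p = 0.00653). Both were called after every rescaling and with every array left out. Acsbg1 rose 1.24-fold as deposited (adjusted p = 0.0284), but in no rescaled version, and was called only without knockout replicate 3 or rescued replicate 1 or 2.

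Of 13 measured regulators of the members, 2 were called higher and 1 lower, where 9.54% and 4.85% of all genes were, so these counts are close to the background. Insig2, which holds SREBP in the endoplasmic reticulum, rose from 9.97 ± 0.07 (SD, n = 4) to 10.80 ± 0.28 (SD, n = 3), 1.79-fold with adjusted p = 0.00177. Nr1d1, which encodes the clock repressor REV-ERB alpha, a partner of HDAC3, was 1.69-fold higher (adjusted p = 0.0187). Nr1h3, which encodes LXR alpha, fell 1.5-fold from 9.65 ± 0.07 to 9.06 ± 0.12 (adjusted p = 0.00163). These 3 were called in every rescaling and with each array left out. Srebf1 differed by -0.16 (adjusted p = 0.262), Ppara by -0.04 and Mlxipl, the gene of ChREBP, by 0.19, none of them called.

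Downstream, 3 of 11 genes that place or release polyunsaturated acyl groups in phospholipids were called higher and none lower, with a median difference of 0.15. The phospholipase gene Pla2g6 was at 10.17, 10.14 and 9.83 in the knockout and 9.33, 9.24, 9.36 and 9.23 in the rescued livers, 1.69-fold higher (adjusted p = 0.00103). Lpcat3, which puts polyunsaturated chains into phosphatidylcholine, rose 1.3-fold (adjusted p = 0.0104) and, like Pla2g6, was called in every rescaling and with each array left out. Agpat3 was 1.29-fold higher (adjusted p = 0.0278, but 0.0783 after median centring) and was called only without knockout replicate 3 or rescued replicate 1 or 4. Of 10 measured genes for peroxisomal shortening of very long chains, which also gives the last step of docosahexaenoic acid synthesis, 5 were called higher and none lower, with a median difference of 0.24 beside 0.09 for all genes. After median centring 3 were called higher, where 2.59% of all genes were, and without knockout replicate 1 the count was also 3. The thiolases Acaa1b (2.17-fold) and Acaa1a (1.49-fold), which are close paralogs, and the bifunctional enzyme Ehhadh (2.13-fold) were called in every rescaling and with each array left out. Hsd17b4, the other bifunctional enzyme, was 1.26-fold higher (adjusted p = 0.0239, but 0.0965 after median centring) and was called only without knockout replicate 3 or rescued replicate 1. Crot, an octanoyltransferase that exports shortened chains, was 1.25-fold higher (adjusted p = 0.0157, but 0.0864 after median centring) and lost its call without knockout replicate 1. Abcd2, a peroxisomal importer of very long chains, had the widest spread of these genes, at 7.42 ± 0.66 (SD, n = 3) in the knockout and 7.84 ± 0.65 (SD, n = 4) in the rescued livers, and was not called.

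**Figure D4:**
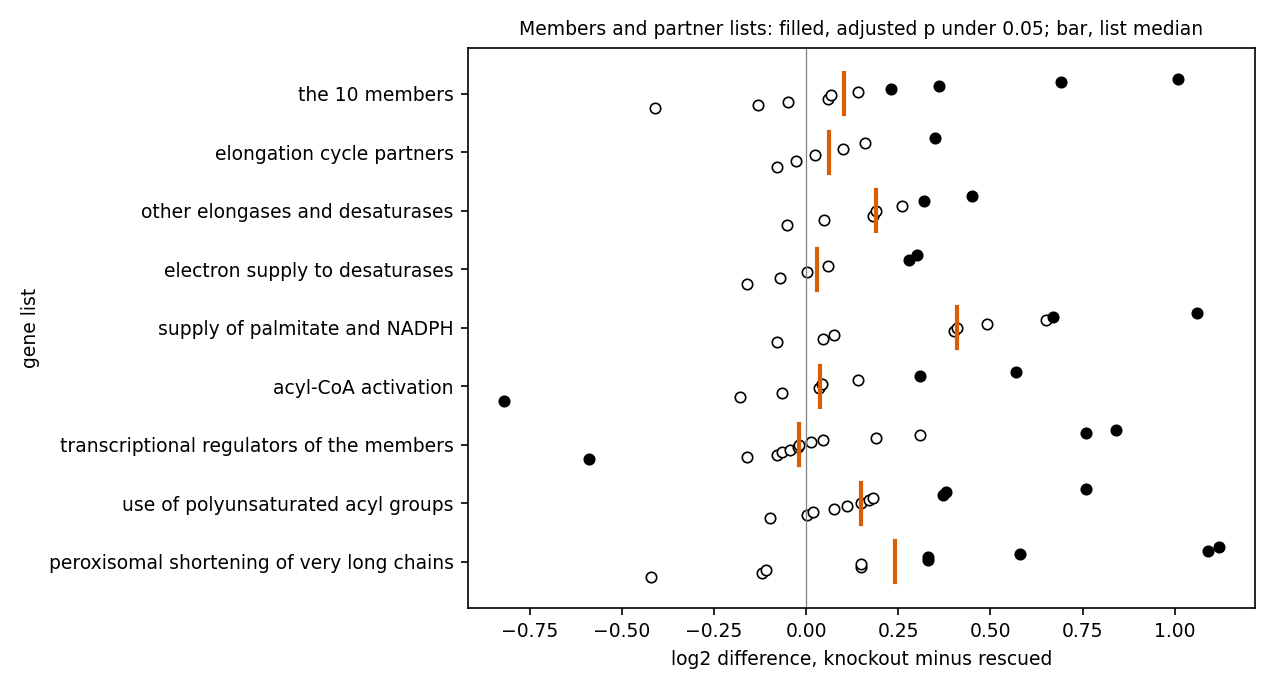
Log2 difference of each measured gene of the 10 members and the 8 partner lists (filled, adjusted p under 0.05 in limma; open, not called; bars, list medians). The highest list median is 0.41 for the supply of palmitate and NADPH, and the lowest single value is -0.82 for Acsl4 among the genes of acyl-CoA activation.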

How the data were processed

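Total RNA from frozen liver was extracted with Trizol and labelled with a GeneChip WT kit, per the labels' protocols. The deposited values are linear intensities, 1 per probe set and array, from 5.41 to 17351. Per the submitters' processing notes they were made with RMA and Partek, in roles and versions that are not given, and the scaling applied last stays unknown. Gene symbols came from GEO's platform annotation: 21631 of 27541 had 1 symbol, 1317 several and 4593 none, and 21544 of the first matched the RefSeq table of GRCm38.p6. A gene was read from its brightest probe set with 1 symbol. No array pair shared over 3.79% of equal values. Log2 values were tested with limma 3.58.1 in R 4.3.3 (lmFit, eBayes, no covariate) with p values adjusted over all genes by Benjamini-Hochberg, and the fit was tested on simulated data. Precision is limited by the number of arrays. The members and lists were chosen with earlier results of these data known. All 10 members are named. Partner lists are named by up to 4 called genes with the largest differences, or the 2 smallest p values where none passed. Fasn, Acaca, Srebf1, Ppara, Mlxipl, Abcd2, Crot and the uncalled elongation genes were added after their values were seen. List genes without a probe set of their own were not analysed here. Alternatives were 3 rescalings, the mean of probe sets, all rows, genes above the median level, a trended and robust spread, the replicate number as a block and each array left out. Figures were drawn with matplotlib 3.10.9.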

Additional observations from a re-analysis of the deposited data

Results flagged for a closer look

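Among the 4 rescued livers, Fads3 in replicate 1 stood apart, at 6.93 against 7.09 to 7.12 in the other 3. Its gap to the nearest value was 0.867 of the group's range, above the limit that Dixon's test sets for 4 samples. This was 1 of 18 sets of values checked, and chance gives such a gap in about 1 of 20. Leaving this array out, Fads3 was still not called.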

How the results depend on the processing

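Of 10 members, 4 were called higher as deposited and 2 after quantile normalization, median centring or cyclic loess or with all rows tested, and 1 was called lower after each of the rescalings. With each array left out, 2 to 4 members were called higher. Elovl1 turned to -0.057 after median centring, and lay between -0.0015 and 0.18 without 1 array. Fads2 turned to -0.024, -0.049 and -0.0018 by quantiles, medians and cyclic loess. Fads3 lay between -0.13 and 0.012 without 1 array. The members' other differences kept their sign in all alternatives. Over all genes, 1901 were higher and 966 lower. The higher count was 842 after quantile normalization, 517 after median centring, 816 after cyclic loess, 1032 among genes above the median level and 449 to 2199 with an array left out, fewest without knockout replicate 1. The lower count was 2167 after median centring and 417 to 1064 with an array left out, fewest without rescued replicate 3. With the replicate number as a replicate block, 3 members were called higher and 1233 genes in all, with Scd1 lost. Same-numbered arrays correlated in their deviations at 0.151, 0.003 and 0.005, and only knockout replicate 1 correlated best with its own number. These values do not show that the numbers pair the livers, and with so few arrays they cannot exclude it. The causes of these shifts were not tested. The probe sets of Scd2 and Fads3 lay only at percentiles 53.3 and 53.9 of all genes, which may limit what can be seen there.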
